A study of Rattus norvegicus with 16 samples.

Results

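The 9 genes described here encode enzymes that carry long- and medium-chain fatty acids into the mitochondrion and shorten them by beta-oxidation: *Cpt1a*, *Cpt2*, *Acadvl*, *Acadl*, *Acadm*, *Hadha*, *Hadhb*, *Acaa2* and the peroxisomal enzyme gene *Ehhadh*. They were chosen by name, as every probe whose gene name in the array files was one of these symbols. This gave 10 probes for the 9 genes, out of 30367 probes and 26269 gene names on the array. They were followed in rat hepatoma H35 cells, a line derived from a liver tumour, after silencing of *Pdrg1* with short hairpin RNAs (shRNA). RNA was labelled with Cy3 and hybridized to one-color Agilent arrays, 1 sample to an array. The 16 arrays hold 4 biological replicates in each of 4 groups. CN-10 is a stable clone that carries a negative control shRNA plasmid. The stable clones shRNA4-18 and shRNA3-44 carry the shRNA4 and the shRNA3 plasmid. The group shRNA3T, named shRNA3-trans in the labels, received the shRNA3 plasmid by transient transfection and is a pool of cells enriched with the antibiotic G418. All 4 groups were selected with G418 at 1.8 mg/ml, and the stable clones were selected further at 4 mg/ml, a step the pool did not have. Each stable line is 1 clone, and the pool has no transiently transfected control among these arrays, so the effect of the shRNA cannot be told apart from differences between clones or from the mode of transfection.

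In beta-oxidation a fatty acid, activated as an acyl-CoA, is passed to carnitine at the outer mitochondrial membrane, moved across the inner membrane and turned back into acyl-CoA. A dehydrogenase chosen by chain length, a hydratase, a second dehydrogenase and a thiolase then cut off acetyl-CoA in repeated rounds. In liver this supplies energy and the acetyl-CoA for ketone bodies during fasting, and many genes of the pathway are known targets of the nuclear receptor PPARα. Peroxisomes run a related set of reactions on very long chains.

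The probe of *Pdrg1* itself averaged 13.64 ± 0.22 (normalized log2 intensity, SD, n = 4) in the control clone. It averaged 12.87 ± 0.87, 12.65 ± 0.51 and 12.79 ± 0.27 in shRNA4-18, shRNA3-44 and shRNA3T. Its log2 fold changes of -0.77, -0.99 and -0.85 had adjusted p-values of 0.129, 0.105 and 0.143 (limma, Benjamini-Hochberg adjustment over all probes), so the silenced gene did not pass in this model. It passed in 3 of 29 alternatives in shRNA4-18, namely with the processed signal (adjusted p = 0.0482 by limma), in the values without scaling between arrays (0.0206) and with the replicate number as a block (0.0176). In shRNA3-44 and shRNA3T it passed without replicate 1 of shRNA4-18 (adjusted p = 0.0085 and 0.0147 by limma), without all shRNA4-18 arrays (0.0151 and 0.024), with array weights (0.00892 and 0.00777), in fits of only the 2 groups compared (0.0378 and 0.00632) and with the block (0.0108 and 0.0183), and in shRNA3T also with the processed signal (0.0406). In shRNA4-18 itself the difference went from -0.77 to -0.33 without its replicate 1, and was -1.52 in the values without scaling. Of the spots on an array, 53.1% to 74.3% were well above background, fewest on the 4 arrays of shRNA4-18 (53.1% to 64.1%), and 0 were saturated. Precision is limited by the number of arrays. Slide and group cannot be told apart, because every slide held a single group, and scanning of the shRNA4-18 slide took place on a different day from the other 3. Of 11 hepatocyte markers, all 11 were well above background on every CN-10 array and 9 on all 16 arrays, whereas *Dcn* and *Lum* (fibroblasts), *Ptprc* (leukocytes), *Pecam1* and *Tek* (endothelium) and *Epcam* (cholangiocytes) were so on no array. Other markers of these cell types were well above background on all 4 CN-10 arrays, namely *Col1a1*, *Col1a2* and *Acta2* (3 of 6 for fibroblasts), *Cd68*, *Csf1r* and *Cd14* (3 of 4 for macrophages), *Cdh5* (1 of 4 for endothelium) and *Krt19* and *Sox9* (2 of 4 for cholangiocytes). The summed linear signal of the hepatocyte markers ranged from 224000 to 454000 in CN-10, from 310000 to 471000 in shRNA4-18, from 241000 to 751000 in shRNA3-44 and from 397000 to 648000 in shRNA3T. Of these markers 2 rose and 5 fell in shRNA4-18, 4 rose and 0 fell in shRNA3-44, and 4 rose and 1 fell in shRNA3T. Among 4 macrophage markers *Cd14* rose in every silenced group and *Cd68* fell in shRNA4-18, and among 4 cholangiocyte markers *Krt19* fell in every one. Among 6 fibroblast markers *Acta2* fell in shRNA4-18 and *Col1a1* rose in shRNA3T, and 0 of 4 endothelial markers passed. The summed macrophage marker signal, in which *Cd14* was the one marker that rose, was 767 to 1030 in CN-10, 1110 to 1280 in shRNA4-18, 1980 to 2840 in shRNA3-44 and 1240 to 1500 in shRNA3T. In RNA of a whole culture, fewer cells of a kind and less RNA per cell cannot be told apart. The part of these markers in the values of the oxidation enzymes was not tested.

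A gene was called when its adjusted p was under 0.05 in the limma model, and passing the 2-fold limit of the study's methods was counted beside it. Against CN-10, and with each gene read by its brightest probe, 5 of the 9 enzymes rose and 0 fell in each of the 3 silenced groups. The second, dimmer probe of *Hadha* fell in shRNA3-44 and shRNA3T and is not in this count. When any 1 of the arrays was dropped, the count of called enzymes was 4 to 6 in shRNA4-18, 2 to 5 in shRNA3-44 and 3 to 6 in shRNA3T. At an unadjusted limma p under 0.05, 6 were higher in shRNA4-18, 5 in shRNA3-44 and 8 in shRNA3T, and 0 were lower. The share of all gene names at this unadjusted limit was not counted, here or below, so these counts have no background beside them. *Acadm*, *Acadvl* and *Cpt1a* rose in all 3, *Acadl* in both stable clones, *Cpt2* in shRNA3-44 and shRNA3T, *Hadha* in shRNA4-18 and *Acaa2* in shRNA3T. *Hadhb* and *Ehhadh* passed in none of these comparisons, although with the replicate number as a block both passed in shRNA3T (adjusted p = 0.043 and 0.0269 by limma). With this block the calls of *Acadl* (adjusted p = 0.0501) and *Cpt2* (0.0625) in shRNA3-44 were lost. At least 2-fold and called were 1 enzyme in shRNA4-18 (*Acadm*), 1 in shRNA3-44 (*Acadvl*) and 2 in shRNA3T (*Acadm* and *Acadvl*). At an adjusted p under 0.05, the background over all gene names, each read by its brightest probe, was 11.6% higher and 12.4% lower in shRNA4-18, 3.45% higher and 4.69% lower in shRNA3-44, and 5.13% higher and 7.04% lower in shRNA3T. With the 2-fold limit, 2.62%, 0.685% and 1.2% of all gene names were higher. The median log2 fold change of the 9 enzymes was 0.43 in shRNA4-18, 0.31 in shRNA3-44 and 0.51 in shRNA3T, against 0.0027, -0.0078 and -0.0084 over all gene names. These 3 comparisons share the CN-10 arrays, so they are not independent of each other.

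The size of these changes in shRNA4-18 has to be read with the scaling between arrays. With normexp-corrected values scaled by the 75th percentile of each array, the median over all probes in shRNA4-18 moved to 0.86, against 0.0057 after quantile normalization. The log2 fold changes of the enzymes in shRNA4-18 themselves moved little for 8 of the 9, with *Acadm* at 1.41 and *Cpt1a* at 0.77, and *Ehhadh* moved to 1.23. Relative to that median, however, *Acadm* was at 0.55 and *Ehhadh* at 0.37, *Acadvl* was at 0.03, and the other 6 lay below 0: *Cpt1a* (-0.09), *Hadha* (-0.12), *Acadl* (-0.40), *Acaa2* (-0.48), *Hadhb* (-0.88) and *Cpt2* (-1.06). With the software's processed signal, scaled likewise, the median was 0.20 in shRNA4-18 and -0.23 in shRNA3T, and relative to 0.20 *Acadm* was at 1.20, *Cpt1a* at 0.59, *Hadha* at 0.41, *Acadl* at 0.26 and *Acadvl* at 0.11. The 75th percentile of the mean spot signal was 1614 to 1946 on the arrays of shRNA4-18 and 2617 to 3512 in CN-10. It was 2328 to 3692 in shRNA3-44 and 2594 to 3641 in shRNA3T. Values without scaling keep these differences in brightness between arrays. In the deposited log2 table without scaling the median over all probes was 0.15 in shRNA4-18. There *Acadm* was still called higher in shRNA4-18 (0.70, adjusted p = 0.0457 by limma) and *Cpt2* was called lower (-0.91, adjusted p = 0.0155), while the calls of *Acadvl* (0.18, adjusted p = 0.649), *Cpt1a* (0.05, adjusted p = 0.874), *Hadha* (0.07, adjusted p = 0.876) and *Acadl* (-0.26, adjusted p = 0.435) were lost. All 5 calls in shRNA3-44 and those of *Acadvl*, *Cpt2* and *Acaa2* in shRNA3T were lost there too, with log2 fold changes of 0.20 to 0.96 and 0.36 to 1.08. In shRNA3-44 and shRNA3T the normexp values with this scaling moved the median to 0.08 and -0.08, and *Acadm* relative to it was at 0.78 and 1.20.

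**Figure D1:**
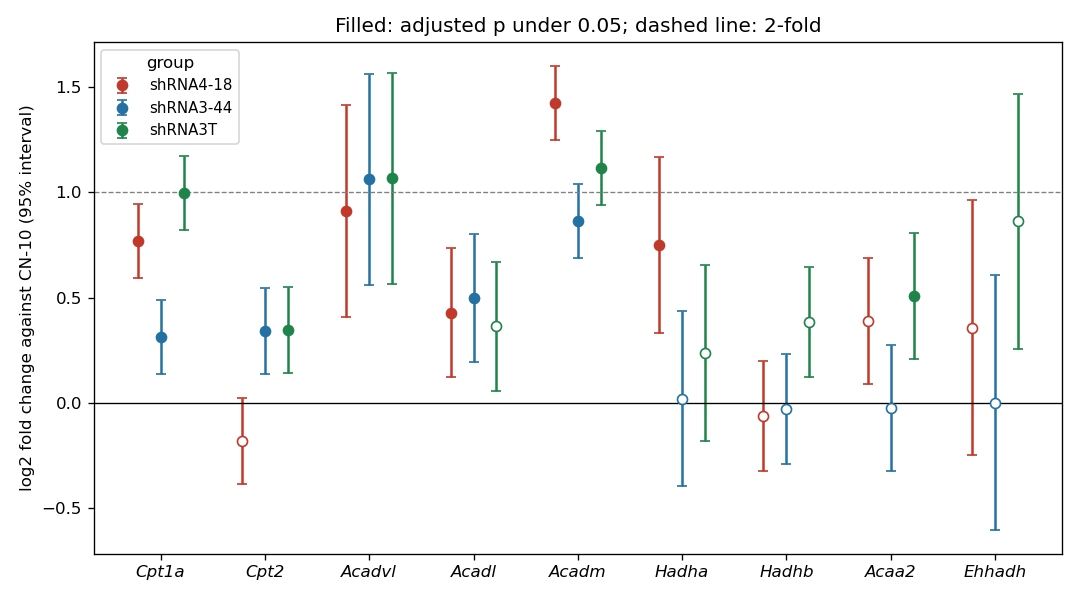
Log2 fold change of each enzyme gene against CN-10 (vertical axis, points, with 95% intervals from the limma model) in shRNA4-18, shRNA3-44 and shRNA3T. Filled points had an adjusted p under 0.05 and the dashed line marks 2-fold. *Acadm* is highest in shRNA4-18 at 1.42, and only *Cpt2* in shRNA4-18 (-0.18), *Hadhb* in shRNA4-18 (-0.06) and shRNA3-44 (-0.03) and *Acaa2* in shRNA3-44 (-0.03) lie below 0.

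*Acadm* encodes medium-chain acyl-CoA dehydrogenase, which opens each round on chains of medium length, and was the enzyme with the largest mean change. Its probe is spotted 10 times on each array and is placed by the array files at bases 251867002 to 251867061 of chromosome 2 (rn4 build, minus strand), from base 1534 of the transcript on. Exons and untranslated regions are not given for any probe, since gene models of rn4 were not used here. The first 30 bases of the probe are shown because this is the reading on which the largest change rests.
*Acadm* probe: tctgttgagttccacagtgaccctttctag

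The 4 CN-10 arrays gave normalized log2 intensities for *Acadm* of 11.29, 11.18, 11.22 and 11.27. In shRNA4-18 they gave 12.73, 12.84, 12.44 and 12.65, in shRNA3-44 11.97, 12.09, 12.22 and 12.12, and in shRNA3T 12.38, 12.33, 12.28 and 12.43. Every silenced array lay above every CN-10 array, and the shRNA4-18 arrays lay above those of both other silenced groups. *Acadm* rose by a log2 fold of 1.42 in shRNA4-18 (2.68-fold, standard error 0.08, adjusted p = 1.25e-08 by limma). In shRNA3-44 it rose by 0.86 (1.82-fold, adjusted p = 1.31e-05) and in the shRNA3T pool by 1.11 (2.17-fold, adjusted p = 6.01e-07). Each of these had a two-sided exact permutation p of 0.0286, the smallest that 4 arrays against 4 allow. Tested spot by spot, an alternative chosen after the data were seen, 10 of its 10 spots were called in shRNA4-18 (1.06 to 1.73), 8 in shRNA3-44 (0.42 to 1.41) and 9 in shRNA3T (0.73 to 1.51). The 2-fold limit was passed by 10, 3 and 7 of these spots. The spots of a probe have the same sequence and the same RNA on each array, so they are technical repeats and not separate tests. The share of all spots called was not counted.

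*Acadvl*, very long-chain acyl-CoA dehydrogenase, starts the oxidation of the longest chains handled in mitochondria. Its single spot (rn4 chromosome 10, 56856347 to 56856406, minus strand) read 11.72, 11.25, 11.70 and 11.74 in CN-10 and 13.11, 12.75, 11.60 and 12.59 in shRNA4-18. In shRNA3-44 it read 12.90, 12.58, 12.54 and 12.64, and in shRNA3T 12.83, 12.55, 12.55 and 12.73. All arrays of shRNA3-44 and shRNA3T lay above CN-10, and 3 of the 4 arrays of shRNA4-18 did, while replicate 3 of shRNA4-18 stayed within the CN-10 range. *Acadvl* rose by 1.06 in shRNA3-44 (2.09-fold, adjusted p = 0.0109 by limma) and by 1.06 in shRNA3T (2.09-fold, adjusted p = 0.00703), both with an exact permutation p of 0.0286. In shRNA4-18 it rose by 0.91 (1.88-fold, standard error 0.23, adjusted p = 0.0102 by limma, exact permutation p = 0.114), and without replicate 3 of shRNA4-18 the value was 1.21, past the 2-fold limit. With the software's processed signal the calls in shRNA4-18 (0.31, adjusted p = 0.244) and shRNA3-44 (0.53, adjusted p = 0.158) were lost. The call in shRNA4-18 was also lost in the fit of only the 2 groups (adjusted p = 0.0698), and that in shRNA3-44 with normexp values scaled by the 75th percentile (1.07, adjusted p = 0.0589).

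*Acadl*, long-chain acyl-CoA dehydrogenase, was read by 1 spot (rn4 chromosome 9, 65613235 to 65613294, minus strand). Its values were 15.36, 15.13, 15.20 and 15.20 in CN-10, 15.35, 15.94, 15.47 and 15.84 in shRNA4-18, 15.98, 15.72, 15.66 and 15.52 in shRNA3-44, and 15.90, 15.59, 15.42 and 15.44 in shRNA3T. Replicate 1 of shRNA4-18 lay within the CN-10 range, and the other 11 silenced arrays lay above it. *Acadl* rose by 0.43 in shRNA4-18 (1.35-fold, adjusted p = 0.0414 by limma) and 0.50 in shRNA3-44 (1.41-fold, adjusted p = 0.0457), and its difference in shRNA3T was 0.36 (adjusted p = 0.128). The call in shRNA4-18 was lost without any 1 of 8 arrays (CN-10 replicates 2, 3 and 4, shRNA4-18 replicates 2 and 4, shRNA3-44 replicates 2 and 3, shRNA3T replicate 2), and the call in shRNA3-44 without any 1 of 10 (all 4 of CN-10, shRNA3-44 replicates 1, 2 and 3, shRNA3T replicates 2, 3 and 4), with log2 fold changes over all left-out arrays of 0.33 to 0.53 and 0.41 to 0.56. With the processed signal the difference in shRNA3-44 was 0.12 (adjusted p = 0.82), and that in shRNA4-18 was 0.46 (adjusted p = 0.0633). In the values without scaling between arrays the difference in shRNA4-18 was -0.26 (adjusted p = 0.435).

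**Figure D2:**
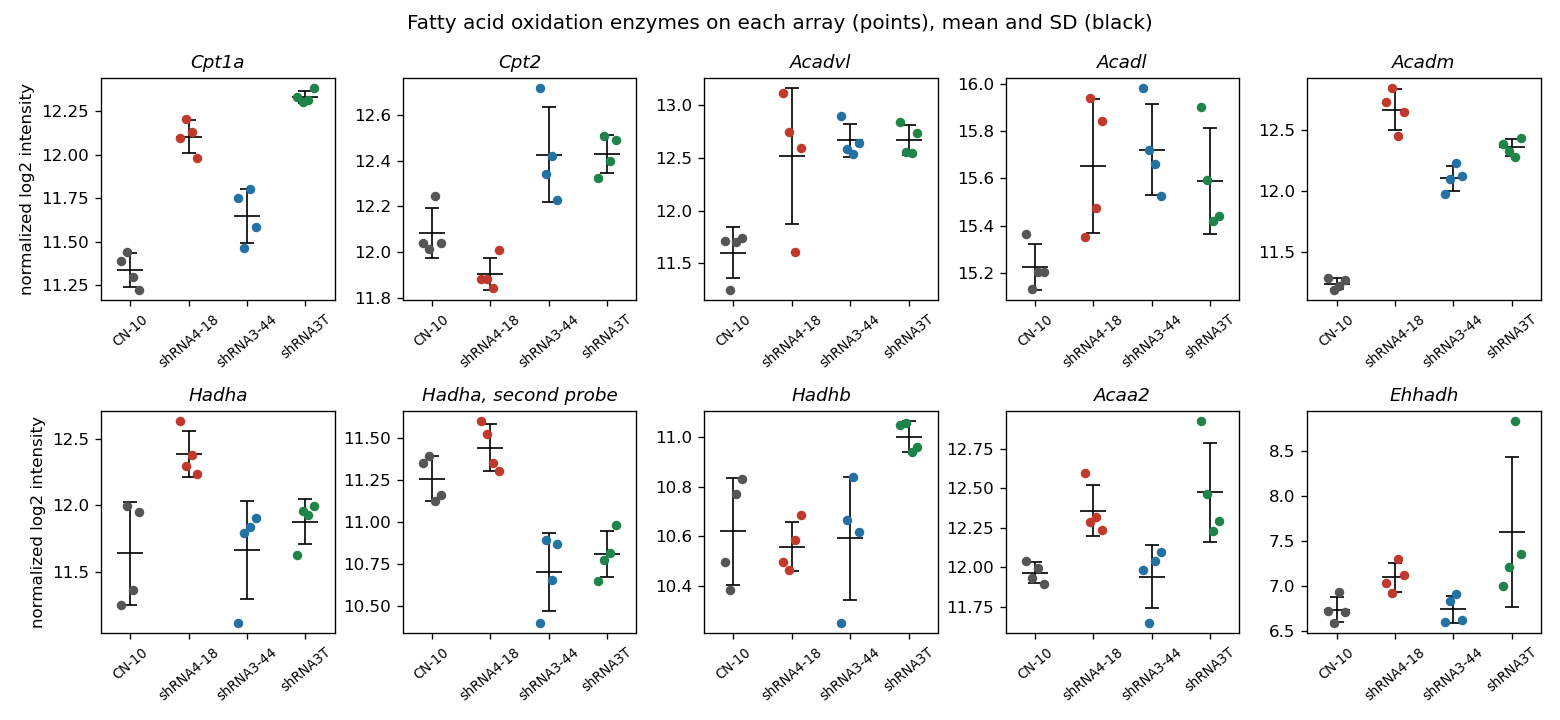
Normalized log2 intensity (vertical axis, a scale of its own in each panel) of every member probe on each of the 16 arrays (points), with the mean and SD of the 4 replicates in black. For *Acadm* and *Cpt1a* the 12 silenced arrays lie above the 4 CN-10 arrays, and the second *Hadha* probe lies below CN-10 in shRNA3-44 and shRNA3T.

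*Cpt1a*, carnitine palmitoyltransferase 1A, makes the acylcarnitines that enter the mitochondrion and is the step regulated by malonyl-CoA. Its probe has 10 spots (rn4 chromosome 1, 205912066 to 205912125, plus strand). Normalized log2 intensities were 11.39, 11.44, 11.29 and 11.22 in CN-10, 12.10, 12.20, 12.13 and 11.98 in shRNA4-18, 11.75, 11.46, 11.80 and 11.59 in shRNA3-44, and 12.33, 12.30, 12.32 and 12.38 in shRNA3T. The silenced groups did not overlap with CN-10, and the arrays of shRNA3-44 were the closest to it. *Cpt1a* rose by 0.77 in shRNA4-18 (1.70-fold, standard error 0.08, adjusted p = 7.24e-06 by limma), 0.31 in shRNA3-44 (1.24-fold, adjusted p = 0.0295) and 1.00 in shRNA3T (1.99-fold, just under the limit, adjusted p = 1.8e-06), each with an exact permutation p of 0.0286. Without replicate 3 or 4 of CN-10, or replicate 1 or 3 of shRNA3-44, the call in shRNA3-44 was lost (lowest value 0.26). It was also lost with normexp values scaled by the 75th percentile (adjusted p = 0.609), with probes well above background in a group (0.051), in the fit of only the 2 groups (0.0823) and without scaling between arrays, 8 of 30 alternatives in all. Without scaling the call in shRNA4-18 was lost as well (0.05, adjusted p = 0.874). Spot by spot, 8 of 10 spots were called in shRNA4-18 (0.24 to 1.44), 0 of 10 in shRNA3-44 (-0.07 to 0.60) and 10 of 10 in shRNA3T (0.85 to 1.22).

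*Cpt2*, carnitine palmitoyltransferase 2, turns the imported acylcarnitines back into acyl-CoA (rn4 chromosome 5, 129007858 to 129007917, minus strand, 10 spots). It read 12.04, 12.01, 12.25 and 12.04 in CN-10, 11.88, 11.88, 11.84 and 12.01 in shRNA4-18, 12.72, 12.34, 12.42 and 12.23 in shRNA3-44, and 12.33, 12.51, 12.40 and 12.49 in shRNA3T. All arrays of shRNA4-18 lay below those of CN-10, though the nearest pair both round to 12.01, and all of shRNA3T and 3 of 4 of shRNA3-44 lay above. *Cpt2* rose by 0.34 in shRNA3-44 (1.27-fold, adjusted p = 0.0405 by limma) and 0.35 in shRNA3T (1.27-fold, adjusted p = 0.0283), and its difference in shRNA4-18 was -0.18 (adjusted p = 0.205 by limma, exact permutation p = 0.0286). The call in shRNA3-44 was lost without any 1 of 9 arrays (CN-10 replicates 1, 2 and 4, shRNA3-44 replicates 1, 2 and 3, shRNA3T replicates 2, 3 and 4; 0.25 to 0.41), and that in shRNA3T without any 1 of 6 (CN-10 and shRNA3T replicates other than CN-10 replicate 3 and shRNA3T replicate 1; 0.32 to 0.40). In all, the call in shRNA3-44 was lost in 17 of 30 alternatives and that in shRNA3T in 9 of 30. Those in shRNA3-44 included the processed signal (adjusted p = 0.0939 by limma), the fit of only the 2 groups (0.111) and the median of the spots (0.16). With normexp values scaled by the 75th percentile both calls were lost (0.588 and 0.415), and with the median of the spots that in shRNA3T was too (0.108). The difference in shRNA4-18 also depended on the scaling, at 0.11 with the processed signal (adjusted p = 0.413) and at -0.91 in the values without scaling, where *Cpt2* was called lower (adjusted p = 0.0155). Only 1 of the 10 spots was called on its own in each of the 3 comparisons.

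**Figure D3:**
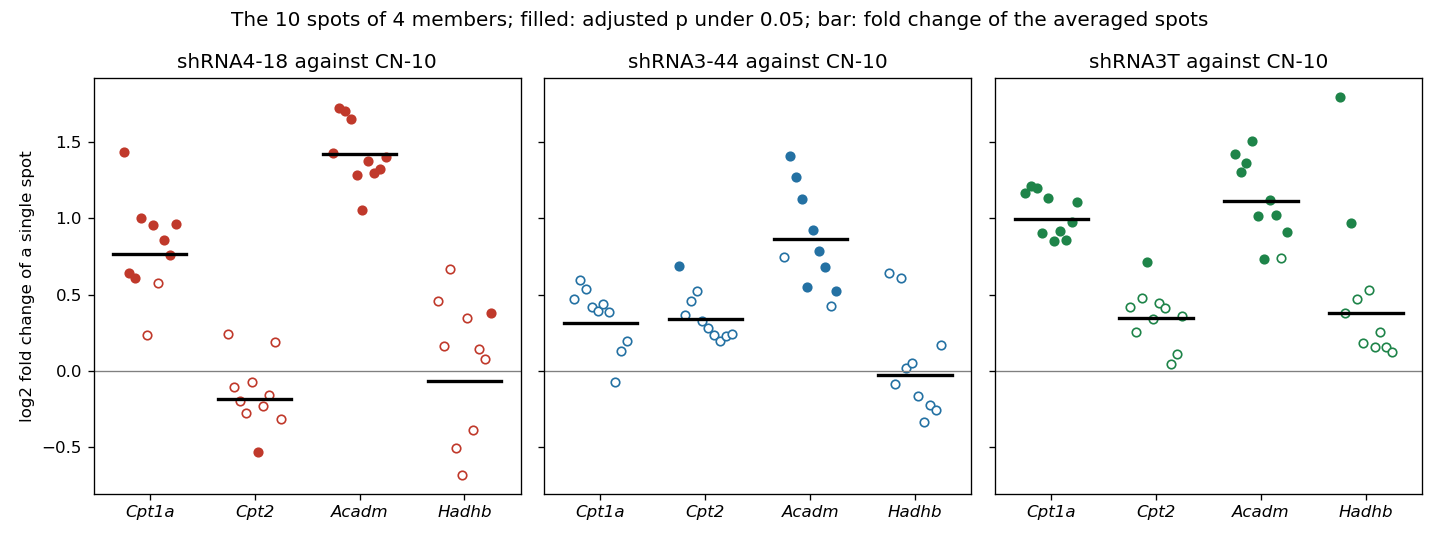
Log2 fold change against CN-10 (vertical axis) of each of the 10 spots of the probes for *Cpt1a*, *Cpt2*, *Acadm* and *Hadhb*, tested one by one, in the 3 silenced groups. Filled points had an adjusted p under 0.05 and the bar is the fold change of the averaged spots. The spots of *Acadm* lie between 0.42 and 1.73 over the 3 panels, and those of *Hadhb* in shRNA4-18 lie on both sides of 0, between -0.68 and 0.67.

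*Hadha* and *Hadhb* encode the alpha and beta subunits of the mitochondrial trifunctional protein, which carries the hydratase, the long-chain 3-hydroxyacyl-CoA dehydrogenase and the thiolase. *Hadha* was read by a pair of probes with 1 spot each, which the array files place on the plus strand of chromosome 6_random of rn4, at 467174 to 467737 (brighter, from base 1957 of the transcript on) and at 452613 to 452672 (second, from base 607 on). The sequences are given in full because the readings of these probes differ, and that of *Hadhb* because it is the partner subunit.
*Hadha* brighter probe: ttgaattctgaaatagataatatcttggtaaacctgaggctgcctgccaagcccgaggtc
*Hadha* second probe: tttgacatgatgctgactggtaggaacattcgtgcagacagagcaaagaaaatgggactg
*Hadhb* probe: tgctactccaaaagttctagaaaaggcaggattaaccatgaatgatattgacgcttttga

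The brighter *Hadha* probe read 11.25, 11.999, 11.36 and 11.95 in CN-10, 12.64, 12.30, 12.39 and 12.24 in shRNA4-18, 11.11, 11.79, 11.84 and 11.91 in shRNA3-44, and 11.62, 11.96, 11.93 and 11.997 in shRNA3T. Only the shRNA4-18 arrays stood clear of CN-10. By this probe *Hadha* rose by 0.75 in shRNA4-18 (1.68-fold, standard error 0.19, adjusted p = 0.0107 by limma, exact permutation p = 0.0286), and its differences were 0.02 in shRNA3-44 (adjusted p = 0.974) and 0.24 in shRNA3T (adjusted p = 0.562). Without scaling between arrays the value in shRNA4-18 was 0.07 (adjusted p = 0.876). The second probe read 11.35, 11.39, 11.13 and 11.16 in CN-10, 11.60, 11.52, 11.35 and 11.31 in shRNA4-18, 10.40, 10.89, 10.65 and 10.87 in shRNA3-44, and 10.65, 10.77, 10.82 and 10.98 in shRNA3T. All arrays of shRNA3-44 and shRNA3T were below CN-10 by the second probe. It fell by 0.56 on the log2 scale in shRNA3-44 (1.47-fold lower, adjusted p = 0.00742 by limma with a standard error of 0.12) and by 0.45 in shRNA3T (1.37-fold lower, adjusted p = 0.0182), and its difference in shRNA4-18 was 0.19 (adjusted p = 0.291). The call in shRNA3T was lost without replicate 1 or 2 of CN-10 or replicate 1 of shRNA3T (log2 fold changes of -0.42, -0.41 and -0.40). Both calls of the second probe were lost with the processed signal (-0.28 in shRNA3-44 and -0.28 in shRNA3T, adjusted p = 0.387 and 0.299), with normexp values scaled by the 75th percentile (-0.57 and -0.45, adjusted p = 0.141 and 0.225) and without scaling (-0.70 and -0.46, adjusted p = 0.333 and 0.652). The probes thus disagree on whether *Hadha* differs from CN-10, and the call in shRNA4-18 rests on 1 of them. Between the clones they read alike, with *Hadha* higher in shRNA4-18 than in shRNA3-44 by 0.73 (adjusted p = 0.0136 by limma) and 0.74 (adjusted p = 0.000269).

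*Hadhb* (rn4 chromosome 6, 26144500 to 26144559, minus strand, 10 spots) read 10.50, 10.38, 10.77 and 10.83 in CN-10, 10.50, 10.46, 10.59 and 10.69 in shRNA4-18, 10.25, 10.67, 10.84 and 10.62 in shRNA3-44, and 11.05, 11.06, 10.94 and 10.96 in shRNA3T. The stable clones overlapped with CN-10, and the 4 shRNA3T arrays lay above all other arrays of this probe. The differences were -0.06 in shRNA4-18 (95% interval -0.32 to 0.20, adjusted p = 0.776 by limma), -0.03 in shRNA3-44 (-0.29 to 0.23, adjusted p = 0.943) and 0.38 in shRNA3T (0.12 to 0.64, adjusted p = 0.0547). In shRNA3T the call was made in 8 of 30 alternatives: without replicate 4 of CN-10 or replicate 1 or 3 of shRNA3-44, with outlier spots kept (adjusted p = 0.0105), with array weights (0.0105), with the processed signal (0.0368), in the fit of only the 2 groups (0.0405) and with the replicate block (0.043). The SD among its 10 spots on an array was between 0.11 and 0.73 on the log2 scale.

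*Acaa2*, mitochondrial acetyl-CoA acyltransferase 2, is the thiolase that closes the round for shorter chains (rn4 chromosome 18, 71605225 to 71605284, plus strand, 1 spot). It read 12.04, 11.93, 11.9995 and 11.90 in CN-10, 12.59, 12.29, 12.32 and 12.23 in shRNA4-18, 11.99, 11.65, 12.04 and 12.10 in shRNA3-44, and 12.92, 12.46, 12.23 and 12.29 in shRNA3T. Both shRNA4-18 and shRNA3T lay above CN-10 on every array, and shRNA3-44 overlapped with it. *Acaa2* rose by 0.51 in shRNA3T (1.42-fold, standard error 0.14, adjusted p = 0.0268 by limma), and its differences were 0.39 in shRNA4-18 (adjusted p = 0.0567) and -0.03 in shRNA3-44 (adjusted p = 0.956). The call in shRNA3T was lost without replicate 2, 3 or 4 of CN-10 or replicate 1 or 2 of shRNA3T (lowest value 0.36), with the processed signal (0.45, adjusted p = 0.0642), with normexp values scaled by the 75th percentile (0.505, adjusted p = 0.218) and without scaling between arrays (0.51, adjusted p = 0.401). A call in shRNA4-18 was gained in 6 alternatives, among them without replicate 2 of shRNA3-44 or replicate 1 of shRNA3T and with the replicate block (adjusted p = 0.0327). In the values without scaling between arrays the difference in shRNA4-18 was -0.33 (adjusted p = 0.339).

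*Ehhadh*, the peroxisomal bifunctional enzyme, was the dimmest reading and was well above background on 14 of 16 arrays, on 3 of 4 in both shRNA4-18 and shRNA3-44 (rn4 chromosome 11, 81506762 to 81506821, plus strand, 1 spot). It read 6.72, 6.59, 6.93 and 6.71 in CN-10, 7.03, 6.92, 7.30 and 7.12 in shRNA4-18, 6.59, 6.83, 6.90 and 6.62 in shRNA3-44, and 6.998, 7.21, 8.83 and 7.36 in shRNA3T. Replicate 3 of shRNA3T lay above the rest of its group, all of which were still above CN-10. The differences were 0.36 in shRNA4-18 (adjusted p = 0.425 by limma), 0.00 in shRNA3-44 (adjusted p = 0.999) and 0.86 in shRNA3T (adjusted p = 0.0646). Without replicate 3 of shRNA3T the value there was 0.44, and *Ehhadh* was then called in both shRNA4-18 and shRNA3T. The call in shRNA3T was made in 6 of 30 alternatives, also without replicate 1 of shRNA3T, with the processed signal (1.91, adjusted p = 0.0159), with array weights (1.22, adjusted p = 0.0172), with the replicate block (adjusted p = 0.0269) and with probes well above background in a group (adjusted p = 0.0376).

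These enzymes were also compared directly between the silenced groups. Between shRNA4-18 and shRNA3-44, 4 enzymes were higher in shRNA4-18 (*Acadm* by 0.56, *Cpt1a* by 0.45, *Hadha* by 0.73 and *Acaa2* by 0.41) and *Cpt2* was lower (-0.52), with adjusted p-values of 0.000163, 0.000929, 0.0136, 0.0452 and 0.00101 by limma. Over all gene names 12.4% were higher and 10.1% lower in shRNA4-18 in that comparison. Between shRNA4-18 and shRNA3T, *Acadm* was higher in shRNA4-18 by 0.31 (adjusted p = 0.0148), and *Cpt2* and *Hadhb* were lower, with differences of -0.53 (adjusted p = 0.00105) and -0.45 (adjusted p = 0.0165). The background there was 11.3% higher and 9.24% lower. Between shRNA3-44 and shRNA3T, which carry the same shRNA3 plasmid, 0 enzymes were higher in shRNA3-44 (0 also at an unadjusted limma p under 0.05) and 3 were lower, with differences of -0.68 for *Cpt1a* (adjusted p = 7.57e-05), -0.53 for *Acaa2* (adjusted p = 0.023) and -0.41 for *Hadhb* (adjusted p = 0.0428), against a background of 5.36% higher and 5.57% lower. The calls between silenced groups depended on the scaling. In the table without scaling 0 enzymes were higher in shRNA4-18 and 1 was lower against shRNA3-44 (0 and 3 at an unadjusted limma p under 0.05), and 0 were higher and 5 lower against shRNA3T (0 and 6 unadjusted). With normexp values scaled by the 75th percentile, 4 were higher and 1 lower against shRNA3-44 and 0 higher and 1 lower against shRNA3T. The medians over all probes, dim ones included, were then 0.84 and 0.97, above each difference given here for those pairs. Whether probes as bright as the enzymes share these medians was not tested. Between shRNA3-44 and shRNA3T, 0 enzymes were called in the table without scaling. With normexp values scaled by the 75th percentile 1 was called, lower in shRNA3-44, and 1 also in the fit of only the 2 groups. In each of the 11 calls first given, the 4 arrays of one group lay beyond the 4 of the other (exact permutation p = 0.0286). These calls were picked by adjusted p on the same arrays, so this adds no support. The share of all gene names without overlap was not counted. *Acadvl* and *Acadl* did not pass between any pair of silenced groups, with 95% intervals for *Acadvl* of -0.65 to 0.35 (shRNA4-18 against shRNA3-44), -0.66 to 0.35 (shRNA4-18 against shRNA3T) and -0.50 to 0.50 (shRNA3-44 against shRNA3T).

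The wider pathway was read through 59 further genes in 4 lists, 1 listed gene having no probe of that name. Of these, 21 rose and 5 fell in shRNA4-18, 13 rose and 1 fell in shRNA3-44, and 17 rose and 2 fell in shRNA3T, with median log2 fold changes of 0.26, 0.14 and 0.31. The direction of the count in shRNA4-18 turned in the table without scaling, where 5 rose and 10 fell, against 3 and 0 in shRNA3-44 and 8 and 0 in shRNA3T. That table keeps the lower brightness of the shRNA4-18 arrays, and the share of all gene names called in it was not counted. After quantile normalization, and in the same order of groups, 5, 4 and 5 of 14 other mitochondrial enzymes rose and 1, 0 and 1 fell, and 2, 3 and 4 of 15 other peroxisomal enzymes rose and 1, 0 and 1 fell. Of 11 acyl-CoA synthetases and carnitine genes 4, 1 and 2 rose and 1, 0 and 0 fell, and of 19 regulators and genes of fatty acid supply 10, 5 and 6 rose and 2, 1 and 0 fell. Of all gene names, 11.6%, 3.45% and 5.13% were higher and 12.4%, 4.69% and 7.04% lower, so that the peroxisomal count of 2 of 15 in shRNA4-18 is near the share of all genes. *Acads*, the short-chain acyl-CoA dehydrogenase next to *Acadm* in chain length, rose by 1.77 in shRNA4-18, 0.99 in shRNA3-44 and 1.25 in shRNA3T (adjusted p = 1.34e-05, 0.00637 and 0.000701 by limma). Both of the latter calls were lost with the processed signal, where *Acads* was at 0.55 (adjusted p = 0.281) and 0.68 (adjusted p = 0.111). In the unscaled table the *Acads* call in shRNA3-44 was lost too (0.92, adjusted p = 0.185 by limma). *Phyh*, the peroxisomal phytanoyl-CoA hydroxylase, rose by 1.43 in shRNA4-18 and 1.32 in shRNA3T (adjusted p = 0.0019 and 0.00652) and its difference in shRNA3-44 was 0.71 (adjusted p = 0.179). In the unscaled table both *Phyh* calls were lost (0.64 and 1.27, adjusted p = 0.307 and 0.124), and without replicate 1 of shRNA3-44 the difference there was called (1.04, adjusted p = 0.00759). It was also called in shRNA3-44 with the replicate block (0.71, adjusted p = 0.0468 by limma), the processed signal (0.77, adjusted p = 0.0254) and array weights (0.86, adjusted p = 0.00512). *Angptl4*, a secreted inhibitor of lipoprotein lipase, rose by 2.68, 1.79 and 3.91 (adjusted p = 2.8e-07, 7.15e-05 and 1.89e-08), and *Creb3l3*, a liver transcription factor active in fasting, by 1.36, 0.84 and 1.68 (adjusted p = 3.11e-06, 0.000968 and 1.3e-06). In the unscaled table the *Creb3l3* calls in shRNA4-18 (0.65, adjusted p = 0.0533) and shRNA3-44 (0.75, adjusted p = 0.176) were lost. *Fabp1*, the liver fatty acid-binding protein, fell by 1.63 in shRNA4-18 and rose by 4.42 in shRNA3-44 and 4.68 in shRNA3T (adjusted p = 1.94e-06, 2.54e-10 and 7.27e-11).

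At the other end of the same lists, *Acsl4*, an acyl-CoA synthetase that prefers arachidonate, fell by 2.05 in shRNA4-18 (adjusted p = 6.82e-09 by limma) and did not pass in shRNA3-44 (-0.14) or shRNA3T (0.12). *Cd36*, a fatty acid transporter, fell by 1.30 in shRNA4-18 (adjusted p = 0.000347) and by 0.84 in shRNA3-44 (adjusted p = 0.0239), and its difference in shRNA3T was 0.19. *Mlycd*, malonyl-CoA decarboxylase, rose in shRNA3T by 1.15 (adjusted p = 0.0343). *Acad11*, a member of the acyl-CoA dehydrogenase family, rose by 0.31 in shRNA3-44 and 1.08 in shRNA3T (adjusted p = 0.0319 and 8.14e-07). Of 30 alternative settings, the *Mlycd* call was lost in 10, among them without replicate 1, 2 or 3 of CN-10 or any 1 array of shRNA3T. The *Cd36* call in shRNA3-44 was lost in 6, among them without replicate 2, 3 or 4 of that clone, and its call in shRNA4-18 was lost with the 75th percentile scaling of normexp values (-0.52) and in the unscaled table (-1.26). The *Acad11* call in shRNA3-44 was lost in 12, among them without replicate 1, 2 or 4 of CN-10 or replicate 1, 3 or 4 of shRNA3-44. *Acacb*, acetyl-CoA carboxylase 2, which makes the malonyl-CoA that restrains the enzyme encoded by *Cpt1a*, was well above background on no CN-10 array and on 3 of 4 arrays of shRNA4-18. Its fitted log2 fold change in shRNA4-18 was 1.05 (adjusted p = 2.14e-05), against a CN-10 signal not well above background, and its size depended on the scaling, from 0.77 after cyclic loess (adjusted p = 0.000441) to 1.85 with normexp values scaled by the 75th percentile (adjusted p = 0.000711) and 3.80 with the processed signal (adjusted p = 7.94e-07). In shRNA3T, where it was well above background on 4 of 4 arrays, the difference was 0.29 (adjusted p = 0.17), and it was called with the processed signal (1.88, adjusted p = 0.000919), with array weights (0.33, adjusted p = 0.0123) and in the fit of only the 2 groups (adjusted p = 0.0305).

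**Figure D4:**
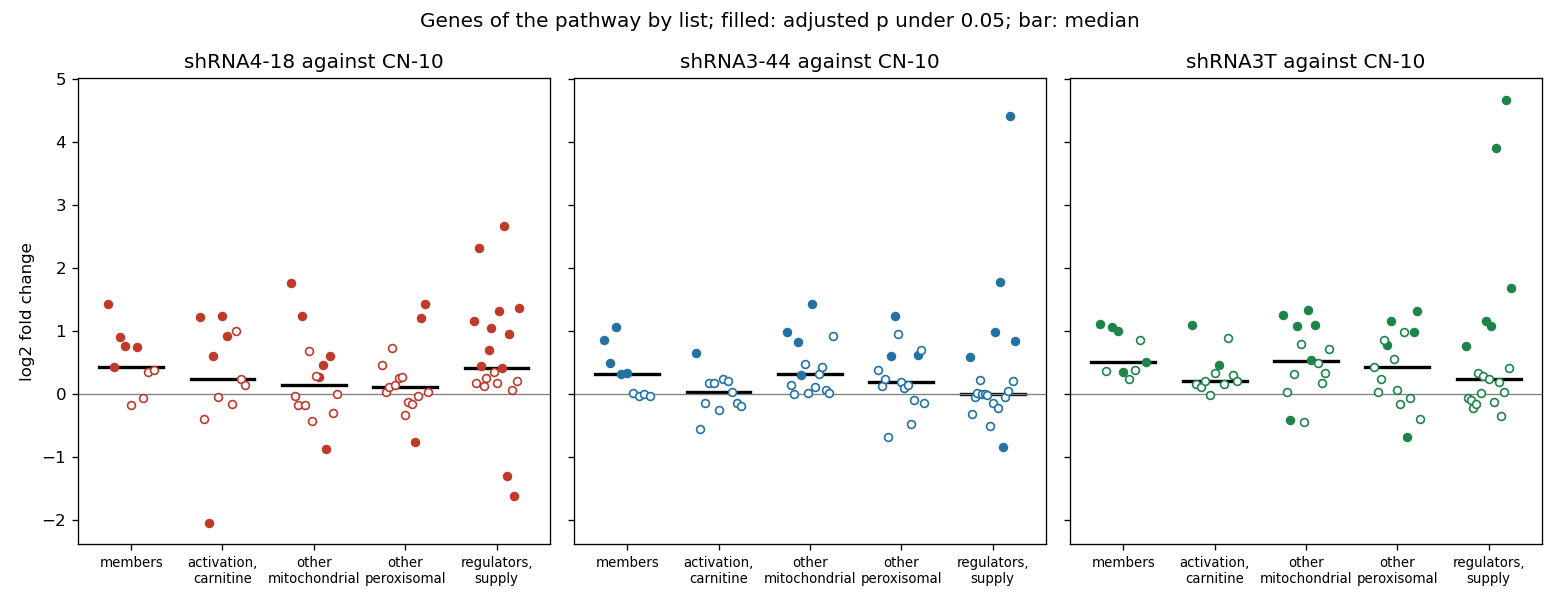
Log2 fold change against CN-10 (vertical axis) of the 9 enzymes and of the 59 further genes by list, in shRNA4-18, shRNA3-44 and shRNA3T. Filled points had an adjusted p under 0.05 and the bar is the median of a list. The medians of the 9 enzymes are 0.43, 0.31 and 0.51, and the widest spread is in the regulators, from -1.63 to 2.68 in shRNA4-18 and up to 4.68 in shRNA3T.

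The mean profile of the 9 enzymes, each set to its own mean over the arrays, was -0.38 ± 0.05 (SD, n = 4) in CN-10, 0.15 ± 0.09 in shRNA4-18, -0.04 ± 0.06 in shRNA3-44 and 0.27 ± 0.05 in shRNA3T. Among 11068 gene names well above background and with a value on all 16 arrays, those most like it by Pearson correlation over the arrays were the unnamed transcript FQ213070 (r = 0.973), the unannotated probe A_64_P135893 (0.964), *Angptl4* (0.962), *Creb3l3* (0.961) and *Cyp2d4* (0.951). This is a description, since all of them differ between the same 4 groups.

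The stretches before the gene starts were taken from RefSeq on the GRCr8 build, on which 7 of the 9 genes had one at hand. In the 250 bases before the start, on both strands, AGGTCA (the core element bound by many nuclear receptors), its direct repeat with 1 base between (which contains it), CACGTG (an E-box) and TGACGTCA (the cyclic AMP response element) were searched. AGGTCA was found 2 times for *Acadvl* and in none of the other 6 genes, and 14.1% of 33469 such windows hold it. TGACGTCA was found once, for *Acadm*, and is held by 1.59% of windows. CACGTG (5.59% of windows) and the repeat (0.0508%) were found in none of the 7. The *Acadm* and *Acadvl* stretches are shown with these letters in capitals, for the enzymes that passed 2-fold, and the *Acadvl* stretch stops at the outermost annotated start, so that it holds 1 of the 2 AGGTCA matches and the other lies past that start. The stretch between *Hadhb* and *Hadha* is shown because the genes lie head to head on chromosome 6 with 243 bases between them. These matches are letters in a window and show no binding, and where there is no match only these letters are absent from this window.
*Acadm*, chr2:245542865-245543114, minus strand: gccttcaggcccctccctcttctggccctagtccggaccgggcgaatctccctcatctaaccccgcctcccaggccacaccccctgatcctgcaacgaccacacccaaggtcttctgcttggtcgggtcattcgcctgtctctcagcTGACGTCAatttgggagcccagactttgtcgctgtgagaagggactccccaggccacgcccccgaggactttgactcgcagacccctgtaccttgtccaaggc
*Acadvl*, chr10:55236787-55236955, minus strand: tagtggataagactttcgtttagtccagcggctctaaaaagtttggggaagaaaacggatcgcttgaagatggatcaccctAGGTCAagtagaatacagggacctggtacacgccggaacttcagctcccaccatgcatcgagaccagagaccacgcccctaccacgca
*Hadhb* to *Hadha*, chr6:31907558-31907800, plus strand: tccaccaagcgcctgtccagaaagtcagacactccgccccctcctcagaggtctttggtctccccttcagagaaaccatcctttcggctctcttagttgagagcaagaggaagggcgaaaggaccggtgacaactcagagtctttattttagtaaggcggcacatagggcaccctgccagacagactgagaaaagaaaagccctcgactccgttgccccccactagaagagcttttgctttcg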

How the data were processed

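Gene expression was measured in 16 samples of H35 cells, 4 per group, with groups taken from the labels. The authors took the images with an Agilent scanner and used version 10.7.3.1 of Feature Extraction to quantify the spots. Linear intensities, without scaling between arrays, were deposited for the processed signal, for the mean and the median of each spot, and for the median of its local background. A second deposited table held log2 values that had lost their decimal points, and with these restored it equals the normexp-corrected median signal (largest difference 3.99e-11), with no scaling. The study's methods name LIMMA linear models with a moderated statistic, a false discovery rate under 5% and a 2-fold limit, and give no settings for background correction or normalization.

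Values were computed in R 4.3.3 with limma 3.58.1: normexp (offset 50) on the mean signal and local background, control spots removed (1377 of them, 42877 kept), quantile normalization on the log2 scale, outlier spots set aside, spots of a probe averaged. The limma model had a mean for each group, over all 16 arrays and all probes, with empirical Bayes moderation and Benjamini-Hochberg adjustment. For each member a two-sided exact permutation test was added. A gene was read by its probe with the highest mean. The fit was tested on simulated data. Part of the simulated 2-fold changes was missed, a first limit set for their recovery was not met and was replaced by one on 4-fold changes, so a member without a call may still differ.

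The members and the lists were chosen with earlier results of these data known. Besides the members, the text names at most 5 list genes with the largest and 5 with the smallest mean change among those called at 2-fold or more in at least 1 group, and the 5 most alike genes. The alternatives tried were other background corrections and scalings, the deposited table, stricter probes, outlier spots kept, a replicate block, array weights, fits of 2 groups, averaged probes, median spots, and each array left out. Of 30367 probes, 18006 had an accession in the GRCr8 gene table, 14580 with the same symbol. File names were kept. Protein sequences were not used here.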

Additional observations from a re-analysis of the deposited data

Results flagged for a closer look

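Of 40 sets of 4 replicate arrays of a member probe, 3 held an array far from the other 3 of its group, where about 1 in 20 stands out by chance. They were replicate 2 of CN-10 for *Acadvl*, the lowest at 11.25, replicate 3 of CN-10 for *Cpt2*, the highest at 12.25, and replicate 1 of shRNA3-44 for *Hadha*, the lowest at 11.11 by the brighter probe. Replicate 3 of shRNA3T for *Ehhadh* (8.83) was not among them by this limit.

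The change against CN-10 differed between silenced groups for 11 pairs of member and comparison, by the direct limma contrast, in which the shared CN-10 arrays cancel. Between shRNA4-18 and shRNA3-44 the differences in log2 fold change were 0.561 for *Acadm*, 0.454 for *Cpt1a*, -0.523 for *Cpt2*, 0.729 for *Hadha* and 0.415 for *Acaa2*. Between shRNA4-18 and shRNA3T they were 0.309 for *Acadm*, -0.526 for *Cpt2* and -0.446 for *Hadhb*. Between shRNA3-44 and shRNA3T they were -0.683 for *Cpt1a*, -0.411 for *Hadhb* and -0.532 for *Acaa2*.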

How the results depend on the processing

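*Acadm* was called in shRNA4-18 and shRNA3T under every alternative run (0.70 to 1.495 and 1.01 to 1.14), and in shRNA3-44 under all but the unscaled deposited table. Without background correction the counts of members called were the same in the 6 comparisons, and with the quantile-normalized deposited table they were too, except that 2 were called in place of 3 between shRNA3-44 and shRNA3T. In the unscaled deposited table the members called were 2 in shRNA4-18 (1 higher and 1 lower), 0 in shRNA3-44 (2 at an unadjusted limma p under 0.05) and 2 in shRNA3T, and 1, 5 and 0 (3, 6 and 2 unadjusted), all of them lower in the first-named group, between shRNA4-18 and shRNA3-44, shRNA4-18 and shRNA3T, and shRNA3-44 and shRNA3T. The further list genes called were 15 in shRNA4-18 (5 higher and 10 lower), 3 in shRNA3-44 and 8 in shRNA3T, *Cpt2* was the member called lower in shRNA4-18 (-0.91), and signs turned for *Acadl* (-0.26), *Acaa2* (-0.33), the second *Hadha* probe (-0.52) and *Mlycd* (-0.29) in shRNA4-18 and for *Hadha* (-0.059) and *Ehhadh* (-0.074) in shRNA3-44. With normexp scaled by the 75th percentile, 1 member was called in shRNA3-44, 3 in shRNA3T, and 1 in each comparison of a stable clone with shRNA3T, with 6 and 11 list genes in shRNA3-44 and shRNA3T and *Acacb* at 0.075 in shRNA3-44. With the processed signal 2 members were called in shRNA3-44, and signs turned for *Cpt2* in shRNA4-18 (0.11) and for *Hadhb* (0.053), *Ehhadh* (-0.18), *Acaa2* (0.058) and *Acacb* (0.53) in shRNA3-44. In shRNA3-44 there were 3 members called with probes well above background in a group, 3 with the replicate block and 3 in fits of only the 2 groups compared, which gave 1 between shRNA3-44 and shRNA3T. Array weights gave 8 members and 32 list genes in shRNA3T, 5 members between shRNA3-44 and shRNA3T, and *Hadhb* (0.11) and *Acacb* (0.076) above 0 in shRNA3-44. Cyclic loess turned *Hadha* (-0.015) and *Ehhadh* (-0.0065) in shRNA3-44. Averaging both *Hadha* probes gave -0.27 in shRNA3-44 and -0.11 in shRNA3T, and kept the call in shRNA4-18. *Hadhb* in shRNA4-18 was 0.031 with outlier spots kept, *Acad11* in shRNA4-18 was 0.064 with the median of the spots, and *Acacb* in shRNA3-44 was 0.071 without background correction. The cause was not tested. The share of all gene names called was counted in the main fit only, so none stands beside the counts of these alternatives. With each array left out, the members called were 4 to 6 in shRNA4-18, 2 to 5 in shRNA3-44 and 3 to 6 in shRNA3T, then 4 to 6, 3 to 4 and 1 to 4 between the silenced groups, and list genes 24 to 28, 9 to 16 and 16 to 21. The count in shRNA3-44 moved by over 1.5 times without any CN-10 array, replicates 1, 2 and 3 of shRNA3-44 or 2, 3 and 4 of shRNA3T, that in shRNA3T without replicate 2 of CN-10 or of shRNA3T, that between shRNA3-44 and shRNA3T without replicate 2 of shRNA3-44, and the list count in shRNA3-44 without its replicate 3. Values that turned sign in this way were *Hadhb* in shRNA4-18 (-0.14 to 0.0079) and, in shRNA3-44, *Hadha* (-0.11 to 0.20), *Hadhb* (-0.11 to 0.087), *Ehhadh* (-0.054 to 0.064), *Acaa2* (-0.077 to 0.073) and *Acacb* (-0.11 to 0.040). With the shRNA4-18 arrays left out, chosen after the data were seen, 4 members were called in shRNA3-44 and 5 in shRNA3T.

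Arrays with the same replicate number are not known to be paired. Their deviations correlated between -0.11 and 0.44 over 24 pairs (12 of them over 0.1), and 9 of 16 arrays correlated best with their own number. With the replicate as a block, 6 members were called in shRNA4-18 (*Acaa2* gained), 3 in shRNA3-44 (*Acadl* and *Cpt2* lost) and 7 in shRNA3T (*Hadhb* and *Ehhadh* gained), and *Pdrg1* passed in all 3 groups (adjusted p = 0.0176, 0.0108 and 0.0183 by limma).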
